A study of Mus musculus with 12 samples.

Results

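The genes described here hold mouse T cells in a resting, recirculating state: Foxo1, Klf2, Klf3, S1pr1, Il7r, Tcf7, Lef1, Satb1 and Bach2. They were chosen by symbol in the annotation of the Affymetrix Mouse Gene 2.0 ST array, with the brightest row kept for a gene that has several. Of the 9 genes named, 8 matched a row with 1 symbol, among 22180 genes tested in all. No row with 1 symbol matched Tcf7, so its level was not analysed, and only sequence before its start sites is described. The arrays measured RNA of sorted splenic CD4+ T cells from mice 8 weeks old of the strain C57BL/6-Foxp3.GFP, in which a fluorescent reporter marks cells that express Foxp3. CD4+Foxp3+ Treg cells and CD4+Foxp3- Teff cells were sorted from splenic CD4+ cells cultured for 3 days. One culture received antibodies to CD3 and to CD28 at 2 µg/ml of each (anti-CD3-CD28), which bind the T cell receptor complex and a costimulatory receptor. The other received 2 soluble ligands, OX40L at 5 µg/ml and the Notch ligand JAG1 at 1 µg/ml (OX40L-JAG1). Fresh, untreated cells served as control. The 6 groups were anti-CD3-CD28 Treg, OX40L-JAG1 Treg, control Treg, anti-CD3-CD28 Teff, OX40L-JAG1 Teff and control Teff cells, with 2 arrays each, called replicates B and 1. The cultures held both cell types until the sort. Since control cells were fresh, the effects of culture and of treatment cannot be told apart in a comparison with control. All groups carry the Foxp3 reporter, and the labels name no gate that separates naive from memory cells. No label says that the 2 replicates came from separate mice or cultures, so the p-values measure the spread between these arrays alone, and that spread may be technical.

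A T cell that has not met its antigen stays small and non-dividing, and moves between blood and lymphoid organs. The forkhead factor FOXO1 drives much of this state. It is held out of the nucleus when antigen receptor or growth factor signals activate the kinase AKT, and its known targets include the genes for KLF2 and for the IL-7 receptor. KLF2 in turn drives S1pr1, the receptor for sphingosine 1-phosphate through which T cells leave lymph nodes, while IL-7 keeps resting T cells alive. TCF-1 (from Tcf7) and LEF-1 are related factors of the Wnt pathway that are high in naive T cells, SATB1 organises chromatin in the thymus and is kept low in Treg cells by FOXP3, and BACH2 holds back effector genes by competing with AP-1 factors.

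The 250 bases before the annotated start were examined for the letters that factors of these families are known to bind, since several of the genes encode such factors and moved together in Teff cells. Sequences are from RefSeq on the build GRCm38.p6, which held 16 start sites for 8 of the 9 genes and none for S1pr1. The Krüppel-like letters CACCC, searched on both strands, lay in 12 of the 16 windows, against 52% of 32851 mouse start sites. That background was not matched for G and C content. The 12 windows belong to 5 of the 8 genes (Klf2, Klf3, Tcf7, Lef1 and Satb1). Some genes have several windows, so the count of genes has no like background here. A pair of windows of Lef1 and a pair of Satb1 overlap, so they are not separate counts. The forkhead letters GTAAACA were in none of the 16 windows (3.17% of all), nor were the AP-1 and BACH letters TGACTCA (4.46% of all), while the TCF and LEF letters CTTTGA were in 1 window each of Lef1 and Bach2 (13.8% of all). A match is a description of letters, not a bound site, and no match says only that these letters are not in that window. The first window of each of the 4 measured genes that held the Krüppel-like letters is shown, read along the gene's strand, with CACCC and its reverse complement GGGTG in capitals. Klf2 (chr8:72318812-72319061, plus strand) held 1 match in a window with 71.2% G and C. Klf3 (chr5:64803271-64803520, plus strand) held 5 matches at 78.4% G and C. Lef1 (chr3:131110047-131110296, plus strand) held 3 matches at 66.4% G and C. Satb1 (chr17:51833291-51833540, minus strand) held 2 matches at 58% G and C.
Klf2: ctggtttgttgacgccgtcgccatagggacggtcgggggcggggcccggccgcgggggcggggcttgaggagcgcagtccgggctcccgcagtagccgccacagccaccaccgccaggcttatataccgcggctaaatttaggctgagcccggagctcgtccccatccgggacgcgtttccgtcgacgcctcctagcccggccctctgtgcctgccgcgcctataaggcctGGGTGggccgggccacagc
Klf3: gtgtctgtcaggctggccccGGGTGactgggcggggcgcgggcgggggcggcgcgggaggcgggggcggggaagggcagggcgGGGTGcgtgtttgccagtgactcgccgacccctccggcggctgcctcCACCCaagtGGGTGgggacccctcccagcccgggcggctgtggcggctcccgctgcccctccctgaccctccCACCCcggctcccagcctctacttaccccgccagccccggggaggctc
Lef1: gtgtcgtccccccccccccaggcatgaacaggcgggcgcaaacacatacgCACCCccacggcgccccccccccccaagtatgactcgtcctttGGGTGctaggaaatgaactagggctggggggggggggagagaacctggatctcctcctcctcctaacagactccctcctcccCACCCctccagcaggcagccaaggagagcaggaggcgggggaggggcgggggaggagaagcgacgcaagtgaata
Satb1: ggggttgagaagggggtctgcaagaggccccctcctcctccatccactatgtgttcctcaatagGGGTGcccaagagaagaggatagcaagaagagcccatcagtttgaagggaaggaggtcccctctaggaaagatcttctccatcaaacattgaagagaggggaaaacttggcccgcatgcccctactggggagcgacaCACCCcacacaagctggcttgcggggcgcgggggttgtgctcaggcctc

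Levels are log2 intensities after RMA, the summary made by the submitters, in which a difference of 1 is a doubling. Changes come from 1 limma fit over the 12 arrays, are log2 differences given with a standard error (SE), and passed the test at a Benjamini-Hochberg adjusted p under 0.05 over all 22180 genes. Foxp3 followed the sort, with group means of 10.37 to 11.12 in Treg cells and 5.65 to 6.58 in Teff cells. Arrays of OX40L-JAG1 Teff cells differed from one another more than those of any other group. Their replicates correlated at 0.881 over the genes, where the other 5 groups reached 0.984 to 0.994, and their SD of replicate differences was 0.81, where the others had 0.234 to 0.362. They also enter the spread shared by all comparisons, so adjusted p-values without them are given where they change a call of the 8 genes. Bright genes as a group were lower on these arrays: over the 2265 genes with a mean log2 of at least 8, the median change in OX40L-JAG1 Teff against control Teff cells was -1.23, while over all genes it was 0.18. The 8 genes all belong to that bright set, with means over the 12 arrays of 8.08 to 10.84, so both backgrounds are given below. The bright set was chosen after the data were seen.

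**Figure D1:**
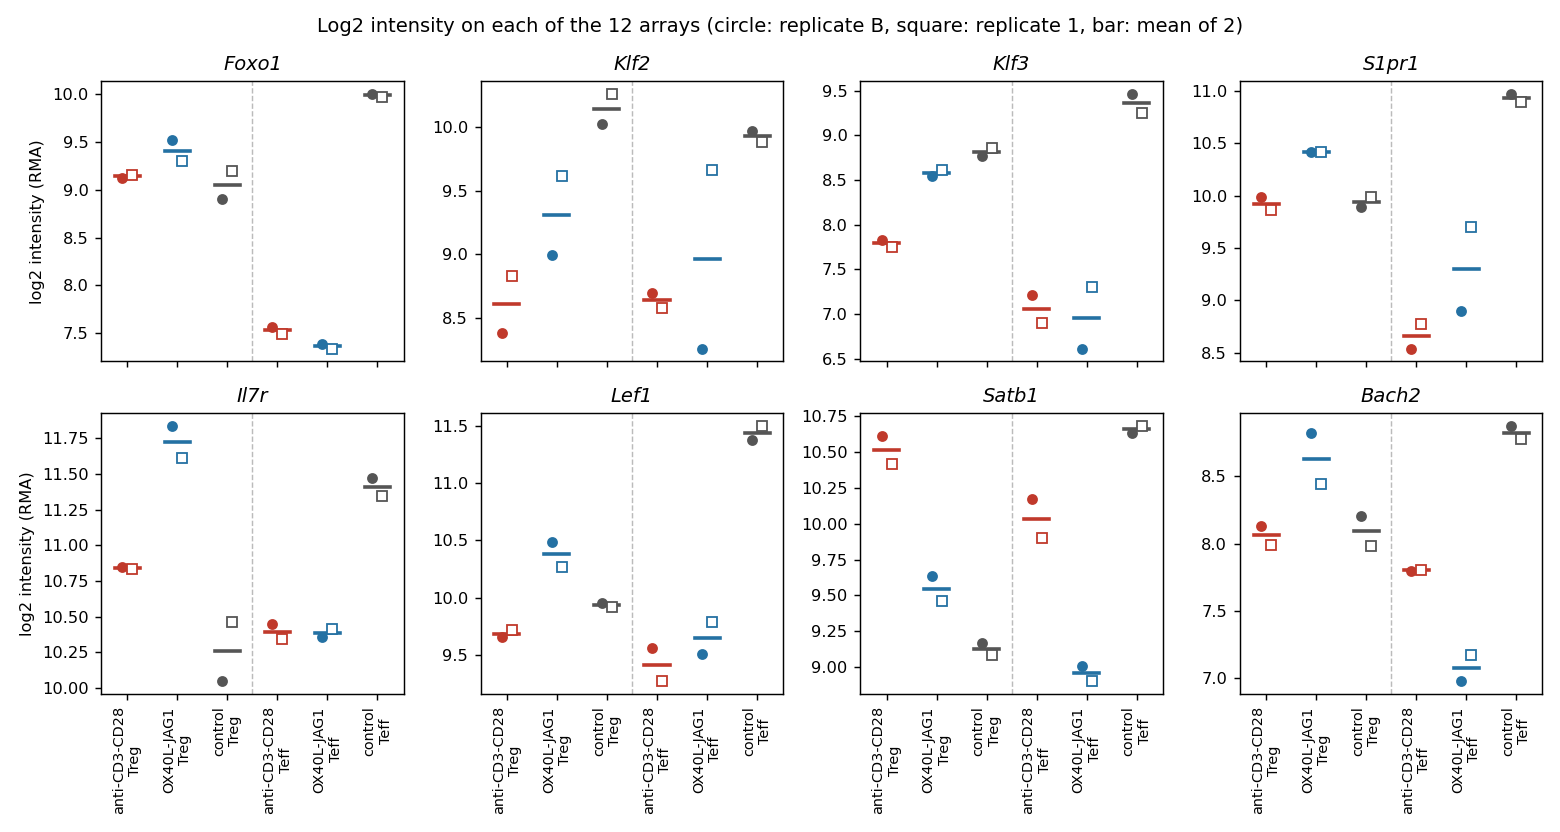
Log2 intensity (vertical axis) of the 8 genes on each of the 12 arrays, by group: circles are replicate B, squares replicate 1 and bars the mean of 2. Control Teff cells have the highest mean for Foxo1, Klf3, S1pr1, Lef1, Satb1 and Bach2, control Treg cells for Klf2 and OX40L-JAG1 Treg cells for Il7r.

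Foxo1 had log2 intensities of 9.13 and 9.16 in anti-CD3-CD28 Treg, 9.52 and 9.31 in OX40L-JAG1 Treg and 8.91 and 9.20 in control Treg cells. The Teff arrays read 7.57 and 7.49 with anti-CD3-CD28, 7.39 and 7.34 with OX40L-JAG1 and 10.01 and 9.98 in control. All 6 Treg arrays thus lay between the control Teff arrays and the 4 cultured Teff arrays, without overlap. Foxo1 was 5.51-fold lower in anti-CD3-CD28 Teff than in control Teff cells (-2.46 ± 0.18, SE, adjusted p = 1.3e-05) and 6.17-fold lower in OX40L-JAG1 Teff than in control Teff cells (-2.63 ± 0.18, adjusted p = 1.33e-05). In Treg cells the change against control was 0.09 ± 0.18 with anti-CD3-CD28 (adjusted p = 0.837) and 0.36 ± 0.18 with OX40L-JAG1 (adjusted p = 0.576), and neither passed. Treg cells were 3.06-fold above Teff cells with anti-CD3-CD28 (1.61 ± 0.18, adjusted p = 0.000326) and 4.13-fold above them with OX40L-JAG1 (2.05 ± 0.18, adjusted p = 5.21e-05). In fresh cells the difference ran the other way, with control Treg 1.91-fold below control Teff cells (-0.94 ± 0.18, adjusted p = 0.0146). That last call was lost when control Teff replicate B, control Teff replicate 1 or control Treg replicate B was left out (adjusted p up to 0.159), and after quantile normalization (adjusted p = 0.112).

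A second, dimmer row of Foxo1 gave another order. Its Treg means were 6.59 with anti-CD3-CD28, 7.54 with OX40L-JAG1 and 7.06 in control, and its Teff means, in turn, 6.72, 7.82 and 7.25. On that row OX40L-JAG1 cells of both kinds were the highest and anti-CD3-CD28 cells the lowest. With both rows averaged, control Treg against control Teff cells no longer passed (adjusted p = 0.137). The other Foxo1 calls passed with the rows averaged too, but that average includes the bright row. On the dimmer row alone OX40L-JAG1 Teff cells lay above control Teff and OX40L-JAG1 Treg cells, the reverse of the bright row. Anti-CD3-CD28 Treg cells lay slightly below anti-CD3-CD28 Teff cells there, also the reverse. Anti-CD3-CD28 Teff cells lay below control Teff cells on both rows. The dimmer row was not tested alone.

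Klf2, the Krüppel-like factor that keeps T cells quiescent and in circulation, behaved unlike the rest. It had 8.38 and 8.83 in anti-CD3-CD28 Treg, 8.99 and 9.62 in OX40L-JAG1 Treg and 10.03 and 10.27 in control Treg cells. The Teff arrays had 8.70 and 8.58 with anti-CD3-CD28, 8.26 and 9.66 with OX40L-JAG1 and 9.97 and 9.89 in control. Control arrays of both cell types were above all cultured arrays, and Treg and Teff arrays overlapped in both cultures. Klf2 fell in anti-CD3-CD28 Treg against control Treg cells, 2.91-fold (-1.54 ± 0.38, adjusted p = 0.0253), and in anti-CD3-CD28 Teff against control Teff cells, 2.45-fold (-1.29 ± 0.38, adjusted p = 0.0423). With OX40L-JAG1 the changes were -0.84 ± 0.38 in Treg (adjusted p = 0.49) and -0.97 ± 0.38 in Teff cells (adjusted p = 0.0556), and neither passed. Without the OX40L-JAG1 Teff arrays the Treg change had adjusted p = 0.0455. The Teff change depended on single arrays and settings. It was -1.68 without OX40L-JAG1 Teff replicate 1 (adjusted p = 0.000204) and -0.27 without replicate B (adjusted p = 0.429). It also passed with the replicate set as a block (adjusted p = 0.0333), with dim genes left out (adjusted p = 0.0491) and with arrays shifted to a common median (-1.21, adjusted p = 0.0269). Treg and Teff cells did not differ by the test with anti-CD3-CD28 (-0.03 ± 0.38, adjusted p = 0.969), with OX40L-JAG1 (0.35 ± 0.38, adjusted p = 0.469) or in control (0.22 ± 0.38, adjusted p = 0.872). The OX40L-JAG1 difference rests on 2 Teff arrays that disagree: it was 1.05 without OX40L-JAG1 Teff replicate 1 and -0.36 without replicate B. The replicates of Klf2 were the farthest apart of the 8 genes, with an SD of 1.0 in OX40L-JAG1 Teff cells. The fall in Teff cells with anti-CD3-CD28 was lost when any of the 10 arrays outside OX40L-JAG1 Teff was left out (adjusted p up to 0.198, without control Teff replicate B), and the fall in Treg cells when any of the 4 arrays compared was (adjusted p up to 0.204, without anti-CD3-CD28 Treg replicate B).

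Klf3, a Krüppel-like repressor, had 7.83 and 7.75 in anti-CD3-CD28 Treg, 8.54 and 8.61 in OX40L-JAG1 Treg and 8.76 and 8.85 in control Treg cells. In Teff cells it had 7.21 and 6.90 with anti-CD3-CD28, 6.61 and 7.31 with OX40L-JAG1 and 9.46 and 9.25 in control. The cultured Teff arrays were the lowest of all 12 and overlapped one another. Klf3 fell 4.92-fold in anti-CD3-CD28 Teff (-2.30 ± 0.24, adjusted p = 1e-04) and 5.26-fold in OX40L-JAG1 Teff cells (-2.40 ± 0.24, adjusted p = 5.02e-05), both against control Teff cells. In Treg cells it fell 2.03-fold with anti-CD3-CD28 (-1.02 ± 0.24, adjusted p = 0.0179) and changed by -0.23 ± 0.24 with OX40L-JAG1 (adjusted p = 0.886). The Treg fall was lost when any of the 4 arrays compared was left out, with adjusted p up to 0.135 (without anti-CD3-CD28 Treg replicate 1). OX40L-JAG1 Treg were 3.06-fold above OX40L-JAG1 Teff cells (1.61 ± 0.24, adjusted p = 0.000497, and 0.0506 when the spread came from the 4 arrays compared alone). In control cells the difference of Treg from Teff was -0.55 ± 0.24 (adjusted p = 0.267, and 0.0405 without the OX40L-JAG1 Teff arrays). Anti-CD3-CD28 Treg cells differed from anti-CD3-CD28 Teff cells by 0.73 ± 0.24 (adjusted p = 0.0683, and 0.00564 without the OX40L-JAG1 Teff arrays).

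S1pr1, the egress receptor, had 9.99 and 9.86 in anti-CD3-CD28 Treg, 10.41 and 10.41 in OX40L-JAG1 Treg and 9.89 and 9.98 in control Treg cells. Its Teff values were 8.54 and 8.78 with anti-CD3-CD28, 8.90 and 9.70 with OX40L-JAG1 and 10.97 and 10.89 in control. Each cultured Teff array lay below each Treg array, and each control Teff array above them. In Teff cells S1pr1 fell 4.83-fold with anti-CD3-CD28 (-2.27 ± 0.24, adjusted p = 0.000131) and 3.1-fold with OX40L-JAG1 (-1.63 ± 0.24, adjusted p = 0.000383). In anti-CD3-CD28 Treg cells it differed from control Treg by -0.01 ± 0.24 (adjusted p = 0.985), with arrays that overlapped, and in OX40L-JAG1 Treg cells by 0.48 ± 0.24 (adjusted p = 0.581). S1pr1 was 2.4-fold higher in Treg than in Teff cells with anti-CD3-CD28 (1.26 ± 0.24, adjusted p = 0.00733) and 2.17-fold higher with OX40L-JAG1 (1.11 ± 0.24, adjusted p = 0.00456). After quantile normalization the OX40L-JAG1 difference was 0.23 and did not pass (adjusted p = 0.39), nor did it with the 4 arrays compared alone (adjusted p = 0.0999). The anti-CD3-CD28 difference was lost without either anti-CD3-CD28 Treg array or without anti-CD3-CD28 Teff replicate B (adjusted p up to 0.076). Fresh Treg cells had 1.99-fold less S1pr1 than fresh Teff cells (-0.99 ± 0.24, adjusted p = 0.0468). That call was lost when any of the 10 arrays outside OX40L-JAG1 Teff was left out (adjusted p up to 0.317, without control Teff replicate B) and with the replicate set as a block (adjusted p = 0.0539), while without both OX40L-JAG1 Teff arrays its adjusted p was 0.00114.

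Il7r, the alpha chain of the IL-7 receptor, had 10.85 and 10.83 in anti-CD3-CD28 Treg, 11.84 and 11.61 in OX40L-JAG1 Treg and 10.05 and 10.46 in control Treg cells. In Teff cells it had 10.45 and 10.34 with anti-CD3-CD28, 10.36 and 10.41 with OX40L-JAG1 and 11.47 and 11.35 in control. OX40L-JAG1 Treg arrays were the highest of the 12, and control Treg arrays overlapped those of both cultured Teff groups at the low end. Il7r rose 2.77-fold in OX40L-JAG1 Treg against control Treg cells (1.47 ± 0.19, adjusted p = 0.00299), and passed in all but 1 of the fits that left out 1 array (adjusted p = 0.0541 without OX40L-JAG1 Treg replicate B). With anti-CD3-CD28 the Treg change was 0.58 ± 0.19 (adjusted p = 0.0891, and 0.0294 without the OX40L-JAG1 Teff arrays). Teff cells went the other way, falling 2.02-fold with anti-CD3-CD28 (-1.02 ± 0.19, adjusted p = 0.00451) and 2.04-fold with OX40L-JAG1 (-1.03 ± 0.19, adjusted p = 0.00164). The OX40L-JAG1 fall in Teff cells was -0.54 after quantile normalization and did not pass (adjusted p = 0.0822), and the anti-CD3-CD28 fall was lost without control Teff replicate B (adjusted p = 0.0587). Set against each other, Treg cells had 2.53-fold more Il7r than Teff cells with OX40L-JAG1 (1.34 ± 0.19, adjusted p = 0.000482, and 0.0502 with the 4 arrays compared alone), 0.45 ± 0.19 more with anti-CD3-CD28 on the log2 scale (adjusted p = 0.164), and 2.23-fold less in control (-1.16 ± 0.19, adjusted p = 0.00653). The control difference was lost without control Teff replicate B, control Teff replicate 1 or control Treg replicate B (adjusted p up to 0.1). Il7r was also 1.85-fold lower in anti-CD3-CD28 than in OX40L-JAG1 Treg cells (-0.88 ± 0.19, adjusted p = 0.0192), a call lost without any of the 4 arrays compared (adjusted p up to 0.162, without OX40L-JAG1 Treg replicate B).

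Lef1, the Wnt pathway factor of naive T cells, had 9.65 and 9.72 in anti-CD3-CD28 Treg, 10.49 and 10.27 in OX40L-JAG1 Treg and 9.96 and 9.92 in control Treg cells. The Teff arrays had 9.56 and 9.28 with anti-CD3-CD28, 9.51 and 9.79 with OX40L-JAG1 and 11.38 and 11.50 in control. The control Teff arrays stood above the other 10, among which the 4 cultured Teff arrays and those of anti-CD3-CD28 Treg cells formed a run of overlapping neighbours at the low end. Against control Teff cells, Lef1 fell 4.06-fold with anti-CD3-CD28 (-2.02 ± 0.19, adjusted p = 5.66e-05) and 3.45-fold with OX40L-JAG1 (-1.79 ± 0.19, adjusted p = 6.62e-05). In Treg cells its changes were -0.25 ± 0.19 with anti-CD3-CD28 (adjusted p = 0.515) and 0.44 ± 0.19 with OX40L-JAG1 (adjusted p = 0.461), and neither passed. Fresh Treg cells had 2.83-fold less Lef1 than fresh Teff cells (-1.50 ± 0.19, adjusted p = 0.00117), which passed with each array left out in turn. With OX40L-JAG1 Treg cells were 1.65-fold above Teff cells (0.73 ± 0.19, adjusted p = 0.012), but the difference was -0.05 after quantile normalization and did not pass with array weights (adjusted p = 0.165), with the 4 arrays compared alone (adjusted p = 0.147) or without OX40L-JAG1 Treg replicate B (adjusted p = 0.0884).

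Satb1, the chromatin organiser that FOXP3 restrains, had 10.61 and 10.42 in anti-CD3-CD28 Treg, 9.63 and 9.46 in OX40L-JAG1 Treg and 9.17 and 9.08 in control Treg cells. Among Teff cells it had 10.17 and 9.90 with anti-CD3-CD28, 9.01 and 8.90 with OX40L-JAG1 and 10.63 and 10.68 in control. No pair of neighbouring groups overlapped, and anti-CD3-CD28 Treg cells came close to control Teff cells. In anti-CD3-CD28 Treg cells Satb1 rose 2.62-fold over control Treg cells (1.39 ± 0.18, adjusted p = 0.000512) and was 1.96-fold above OX40L-JAG1 Treg cells (0.97 ± 0.18, adjusted p = 0.00823). The rise over control Treg cells passed with each array left out in turn and in every other setting tried. The difference between the cultured Treg groups was lost without anti-CD3-CD28 Treg replicate B or OX40L-JAG1 Treg replicate 1 (adjusted p up to 0.114) and had adjusted p = 0.0548 after quantile normalization. OX40L-JAG1 Treg cells differed from control Treg cells by 0.42 ± 0.18 (adjusted p = 0.463). In Teff cells Satb1 fell 3.25-fold with OX40L-JAG1 (-1.70 ± 0.18, adjusted p = 6.83e-05) and 1.54-fold with anti-CD3-CD28 (-0.62 ± 0.18, adjusted p = 0.0421), and the anti-CD3-CD28 group was 2.11-fold above the OX40L-JAG1 group (1.08 ± 0.18, adjusted p = 0.00193). The anti-CD3-CD28 fall was lost when any of the 10 arrays outside OX40L-JAG1 Teff was left out (adjusted p up to 0.246, without anti-CD3-CD28 Teff replicate 1) and after quantile normalization (adjusted p = 0.214). The difference between the treated Teff groups was 0.28 after quantile normalization (adjusted p = 0.438). Control Treg had 2.89-fold less Satb1 than control Teff cells (-1.53 ± 0.18, adjusted p = 0.000787). OX40L-JAG1 Treg were 1.51-fold above OX40L-JAG1 Teff cells (0.59 ± 0.18, adjusted p = 0.0254), but this difference was -0.38 after quantile normalization and did not pass without either OX40L-JAG1 Treg array (adjusted p up to 0.138, without replicate B), with array weights (adjusted p = 0.257) or with the 4 arrays compared alone (adjusted p = 0.195). With anti-CD3-CD28 the difference was 0.48 ± 0.18 (adjusted p = 0.117, and 0.0401 without the OX40L-JAG1 Teff arrays).

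Bach2, the repressor of effector genes, had 8.13 and 7.99 in anti-CD3-CD28 Treg, 8.82 and 8.45 in OX40L-JAG1 Treg and 8.21 and 7.98 in control Treg cells. The Teff arrays had 7.80 and 7.80 with anti-CD3-CD28, 6.98 and 7.17 with OX40L-JAG1 and 8.88 and 8.78 in control. Control Teff and OX40L-JAG1 Treg arrays overlapped at the top, and the OX40L-JAG1 Teff arrays were the lowest of the 12. In Teff cells Bach2 fell 3.36-fold with OX40L-JAG1 (-1.75 ± 0.20, adjusted p = 7.78e-05) and 2.03-fold with anti-CD3-CD28 (-1.02 ± 0.20, adjusted p = 0.00444, and 0.0555 without control Teff replicate B). The anti-CD3-CD28 group was thus 1.65-fold above the OX40L-JAG1 group (0.72 ± 0.20, adjusted p = 0.0186), a difference that was -0.11 after quantile normalization and did not pass without either anti-CD3-CD28 Teff array (adjusted p up to 0.0843, without replicate B). In Treg cells the changes were -0.03 ± 0.20 with anti-CD3-CD28 (adjusted p = 0.95) and 0.54 ± 0.20 with OX40L-JAG1 (adjusted p = 0.315). OX40L-JAG1 Treg cells had 2.94-fold more Bach2 than OX40L-JAG1 Teff cells (1.56 ± 0.20, adjusted p = 0.000225), which was 0.53 after quantile normalization and did not pass (adjusted p = 0.11). The differences were 0.26 ± 0.20 with anti-CD3-CD28 (adjusted p = 0.425) and -0.73 ± 0.20 in control cells (adjusted p = 0.0675, and 0.0133 without the OX40L-JAG1 Teff arrays).

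Anti-CD3-CD28 Teff and control Teff cells were compared for the change of Foxp3- cells in culture with anti-CD3-CD28, where culture and stimulation cannot be told apart. All 8 genes measured fell, with changes of -0.62 (Satb1) to -2.46 (Foxo1) and a median of -1.66. Over all genes tested 9.75% fell and the median change was 0.07, and over the bright set 24.3% fell and the median was -0.29. Without the OX40L-JAG1 Teff arrays 40.1% of the bright set fell. All 8 also fell without the OX40L-JAG1 Teff arrays, when 16.5% of all genes did, and 4 to 8 fell with 1 array left out (4 without control Teff replicate B). T cell markers fell with them: of 6 measured in the list, 3 fell, namely Cd4 (-1.97 ± 0.22), Cd5 (-1.55 ± 0.18) and Cd3e (-1.30 ± 0.18), and the mean of the list was 10.29 and 10.33 on the anti-CD3-CD28 Teff arrays, against 11.21 and 11.12 on the control Teff arrays. Without the OX40L-JAG1 Teff arrays 5 of the 6 fell and 1 rose. The mean of 5 Treg markers was higher, at 8.55 and 8.38 against 6.08 and 6.00, while Foxp3 itself averaged 5.65 in anti-CD3-CD28 Teff and 5.66 in control Teff cells. B cell markers were lower in 4 of 6, erythroid and platelet markers higher in 3 of 3 measured, and markers of cycling cells higher in 4 of 4, at means of 9.06 and 8.82 against 7.07 and 7.12. In sorted bulk samples fewer cells of a type and less RNA per cell cannot be told apart, and the part of these markers in the fall of the 8 genes was not tested.

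OX40L-JAG1 Teff and control Teff cells showed the same direction in culture without a receptor antibody. Of the 8 genes 7 fell, all but Klf2, and the median change was -1.73. Over all genes 26.9% fell, with a median change of 0.18, but in the bright set 73.5% fell and the median was -1.23, so the count is close to that of genes of like brightness on these arrays. T cell markers fell in 5 of 6, led by Cd4 (-2.55 ± 0.22), Cd3e (-2.13 ± 0.18) and Thy1 (-2.03 ± 0.19). Their mean was 9.12 and 9.77 on the OX40L-JAG1 Teff arrays, against 11.21 and 11.12 on the control Teff arrays, while the mean of 9 myeloid and granulocyte markers was 8.16 and 9.31, against 5.28 and 5.19, with all 9 higher. Treg markers were higher in 4 of 5, erythroid and platelet markers in 3 of 3, and cycling markers lower in 2 of 4. The part of these markers in the result was not tested. The count was 7 or 8 with each array left out in turn.

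The change of Foxp3+ cells in culture with anti-CD3-CD28 is read from anti-CD3-CD28 Treg against control Treg cells. Klf2 and Klf3 fell and Satb1 rose, and the other 5 genes did not pass, with changes between -0.25 (Lef1) and 0.58 (Il7r). Over all genes 1.97% fell and 8.08% rose (6.62% and 17.7% of the bright set), and the median change of the 8 genes was -0.02, against -0.05 over all genes and 0.28 over the bright set. Without the OX40L-JAG1 Teff arrays 2 fell and 2 rose, Il7r joining Satb1 (6.75% of all genes fell and 14.8% rose, and 14% and 34.7% of the bright set). With 1 array left out the count was 1 to 4, and it was 1 without any of the 4 arrays compared, Satb1 being the call left. The T cell marker mean was 10.69 and 10.78 on the anti-CD3-CD28 Treg arrays, against 10.74 and 10.93 on the control Treg arrays, and the mean of 4 markers of cycling cells was 9.97 and 10.00, against 7.06 and 7.35, with all 4 higher. Treg markers were higher in 4 of 5. The part of these markers in the result was not tested.

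The change of Foxp3+ cells in culture with the ligands is read from OX40L-JAG1 Treg against control Treg cells, where culture and ligands cannot be told apart. Il7r rose and none of the other 7 genes passed in limma; Klf2, Lef1, Satb1 and Bach2 had an unadjusted p under 0.05. Over all genes 0.996% rose and 0.559% fell (1.59% of the bright set rose), and the median change of the 8 genes was 0.43, against -0.01 over all genes and 0.13 over the bright set. Without the OX40L-JAG1 Teff arrays Klf2 fell as well (3.4% of all genes rose and 2.01% fell, and 7.99% and 4.81% of the bright set). With 1 array left out the count was 0 to 2, and 0 without OX40L-JAG1 Treg replicate B. The myeloid and granulocyte marker mean was 7.50 and 7.72 on the OX40L-JAG1 Treg arrays, against 4.19 and 4.13 on the control Treg arrays, where 7 of the 9 lay below the lowest array median. Of the 9, 7 were higher in OX40L-JAG1 Treg cells, and none of the 6 T cell markers or 4 cycling markers passed in limma. Without the OX40L-JAG1 Teff arrays all 9, and 3 of the 4 cycling markers, were higher, and again no T cell marker passed. The part of these markers in the change of Il7r was not tested.

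**Figure D2:**
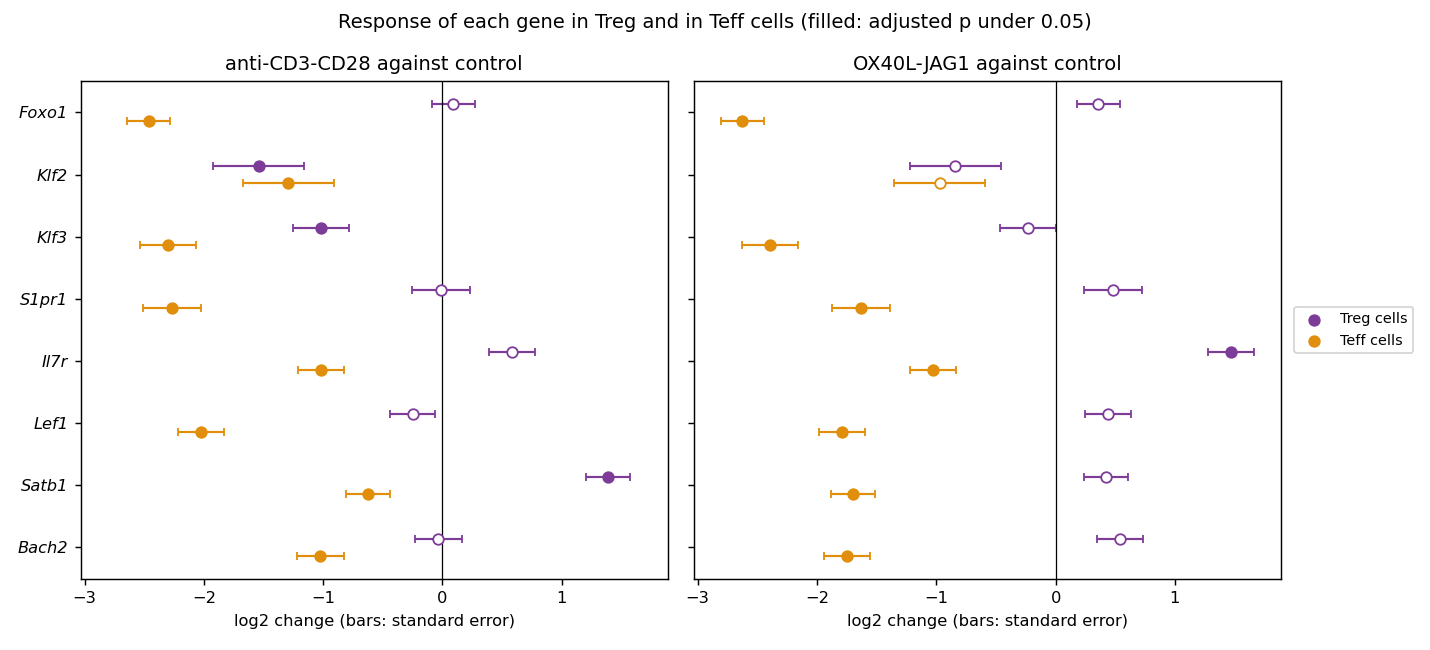
Log2 change of each gene (rows) against control cells, with standard error bars, for anti-CD3-CD28 (left) and OX40L-JAG1 (right); purple is Treg and orange Teff cells, and filled points passed the adjusted p threshold of 0.05. The Teff points lie at or below -0.62 throughout, while the Treg points lie between -1.54 (Klf2) and 1.47 (Il7r).

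The responses of the cell types were then set against each other with an interaction term, the change in Treg cells minus the change in Teff cells. For anti-CD3-CD28, 7 of the 8 genes passed with a higher value in Treg cells, from 0.99 ± 0.28 for Bach2 to 2.55 ± 0.26 for Foxo1, and over all genes 10.1% did (28.4% of the bright set, and 49.8% of it without the OX40L-JAG1 Teff arrays). The count was again 7 without the OX40L-JAG1 Teff arrays, when 20% of all genes passed upward, and 5 to 7 with 1 array left out (5 in 7 of those 12 fits). Bach2 (adjusted p = 0.0378) and Klf3 (adjusted p = 0.0289) were nearest the threshold, and were the 2 calls lost in fits with 1 array left out. Their interactions stayed at 0.88 to 1.10 for Bach2 and 1.12 to 1.44 for Klf3 in those fits. Neither passed after quantile normalization (adjusted p = 0.534 and 0.132). For OX40L-JAG1, 7 passed in the same direction, from 2.11 ± 0.34 for S1pr1 to 2.98 ± 0.26 for Foxo1, with 21.3% of all genes and 64.2% of the bright set, and 7 passed whichever array was left out. Satb1 did not pass there after quantile normalization (adjusted p = 0.0569). Klf2 stood apart in both, with an interaction of -0.25 ± 0.54 for anti-CD3-CD28 (adjusted p = 0.799) and 0.13 ± 0.54 for OX40L-JAG1 (adjusted p = 0.859). Its OX40L-JAG1 interaction was 0.84 without OX40L-JAG1 Teff replicate 1 and -0.57 without replicate B. The responses of both treatments were measured against the same control arrays. On the dimmer row of Foxo1, not tested alone, Treg and Teff cells moved alike. With anti-CD3-CD28 its Treg mean went from 7.06 to 6.59 and its Teff mean from 7.25 to 6.72. With OX40L-JAG1 the Treg mean went to 7.54 and the Teff mean to 7.82. T cell markers moved with both interactions: 4 of 6 were higher for anti-CD3-CD28 (median 1.35) and 4 of 6 for OX40L-JAG1 (median 1.92). Cycling markers were higher in 1 of 4 for anti-CD3-CD28 and in 3 of 4 for OX40L-JAG1. Without the OX40L-JAG1 Teff arrays the anti-CD3-CD28 interaction had 3 of 4 cycling markers higher, and 4 of 6 T cell markers higher and 1 lower. The part of these markers in the interactions was not tested.

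Treg cells were compared with Teff cells within each condition. In control cells 5 of the 8 genes were lower in Treg cells (Foxo1, S1pr1, Il7r, Lef1 and Satb1) and none higher, against 2.51% of all genes lower (5.7% of the bright set, and 22.1% of it without the OX40L-JAG1 Teff arrays). The median change of the 8 genes was -0.97, against 0.02 over all genes and -0.16 over the bright set. Without the OX40L-JAG1 Teff arrays 7 were lower, all but Klf2 (8.93% of all genes), and with 1 array left out 2 to 7 were, 2 without control Teff replicate B, control Teff replicate 1 or control Treg replicate B. B cell markers moved the same way. Their mean over 6 measured was 4.78 and 4.94 on the control Treg arrays, against 6.07 and 6.12 on the control Teff arrays, and 4 of the 6 passed as lower. Of the 6, 4 lay below the lowest array median (4.87) in control Treg cells and 2 did in control Teff cells, so the size of their difference is not given. The T cell marker Cd4 was lower too (-1.42 ± 0.22, adjusted p = 0.00413). The part of these markers in the result was not tested.

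With anti-CD3-CD28, 2 of the 8 genes were higher in Treg than in Teff cells, Foxo1 and S1pr1, against 9.03% of all genes (25% of the bright set). The median change was 0.46, against 0.43 over the bright set and -0.05 over all genes. Without the OX40L-JAG1 Teff arrays Klf3 and Satb1 passed as well, which makes 4 (18.2% of all genes), and with 1 array left out 1 to 4 passed (1 without either anti-CD3-CD28 Treg array or without anti-CD3-CD28 Teff replicate B). Of the bright set 47.7% were higher without the OX40L-JAG1 Teff arrays, so that count of 4 is close to that of genes of like brightness. T cell markers were higher in 2 of 6 and cycling markers in 1 of 4. Without those arrays T cell markers were higher in 4 of 6 and lower in 1, and cycling markers higher in 4 of 4. With OX40L-JAG1, 7 were higher, all but Klf2, against 24.6% of all genes, but 77.4% of the bright set were higher too, and the median change of the 8 genes, 1.23, was near the 1.19 of the bright set. After quantile normalization 3 were higher (Foxo1, Klf3 and Il7r), and Lef1 and Satb1 turned to lower values in Treg cells that did not pass, at -0.05 and -0.38. With the 4 arrays compared alone 2 passed, Foxo1 and Bach2. T cell markers were higher in 5 of 6 (median 1.52) and cycling markers in 4 of 4 (median 1.62), and myeloid and granulocyte markers were lower in 5 of 9 (median -1.21). The part of these markers in either result was not tested.

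**Figure D3:**
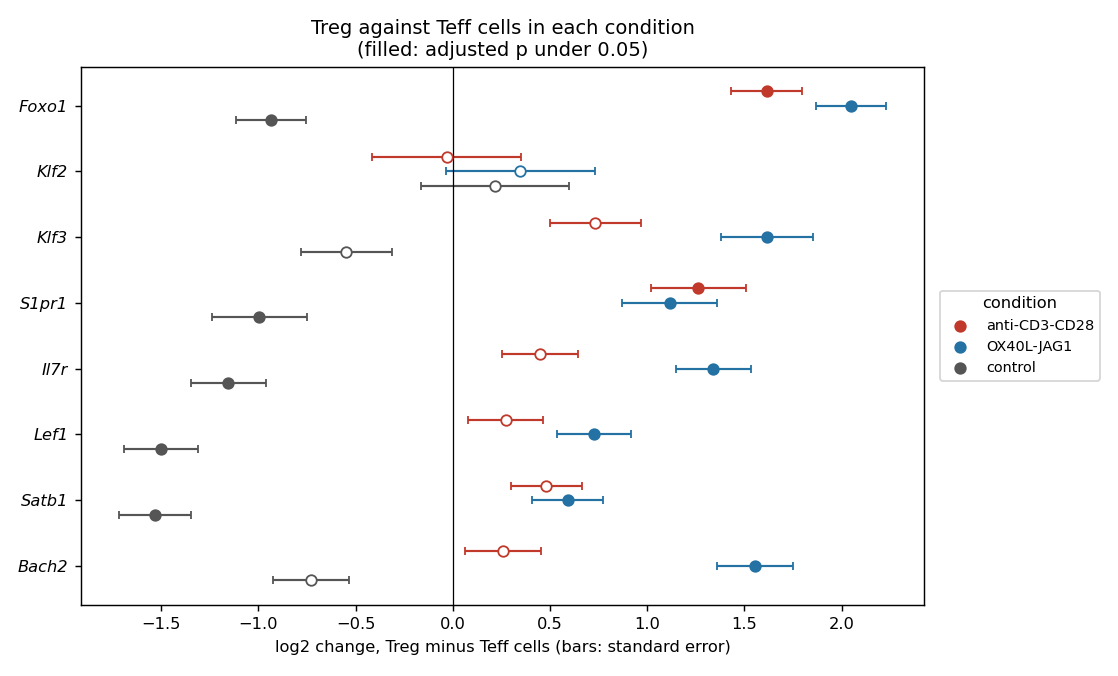
Log2 change in Treg against Teff cells for each gene (rows) in each condition, with standard error bars; filled points passed the adjusted p threshold of 0.05. Every control point except that of Klf2 lies below 0 and every treated point except Klf2 with anti-CD3-CD28 lies above 0, although after quantile normalization Klf2, Lef1 and Satb1 with OX40L-JAG1, and Lef1 and Bach2 with anti-CD3-CD28, fell below 0.

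The treatments were compared directly within each cell type. In Treg cells, Satb1 was higher and Il7r lower with anti-CD3-CD28 than with OX40L-JAG1, against 4.73% of all genes higher and 1.18% lower (7.37% and 4.59% of the bright set). Without the OX40L-JAG1 Teff arrays 5 genes were lower, Klf3, S1pr1, Lef1 and Bach2 joining Il7r (4.01% of all genes and 11.7% of the bright set), and Satb1 was higher (9.89% of all genes and 19.7% of the bright set). With 1 array left out 0 to 6 passed (0 without anti-CD3-CD28 Treg replicate B or OX40L-JAG1 Treg replicate 1). Lef1 had 9.65 and 9.72 with anti-CD3-CD28, against 10.49 and 10.27 with OX40L-JAG1 (-0.69 ± 0.19, adjusted p = 0.0627, and 0.0115 without those arrays). Without them the adjusted p was 0.00586 for Klf3, 0.0491 for S1pr1 and 0.0412 for Bach2, against 0.0867, 0.38 and 0.14 with all 12 arrays. Myeloid and granulocyte markers were lower with anti-CD3-CD28 in 8 of 9, at means of 4.30 and 4.14 against 7.50 and 7.72, and cycling markers higher in 4 of 4, at 9.97 and 10.00 against 7.96 and 7.94. In Teff cells Satb1 and Bach2 were higher with anti-CD3-CD28, against 18.9% of all genes (59.4% of the bright set), and S1pr1 had -0.64 ± 0.24 (adjusted p = 0.0711). With array weights neither of these 2 passed, and after quantile normalization neither did, while Klf2, Klf3, S1pr1 and Lef1 were lower there. With 1 array left out 1 to 4 passed, and 1 without either anti-CD3-CD28 Teff array. Myeloid and granulocyte markers were lower in 9 of 9, at 5.04 and 4.97 against 8.16 and 9.31, cycling markers higher in 4 of 4 and T cell markers in 2 of 6. What these markers contribute to either comparison was not tested.

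Other genes of the same pathways were read from lists that share no gene with the 9. In anti-CD3-CD28 Teff against control Teff cells, 6 of 11 homing, adhesion and egress genes fell and none rose, where 9.75% of all genes fell and 5.44% rose (24.3% and 10.5% of the bright set). They were led by the integrin chain Itga4 (-3.38 ± 0.18), the lymph node homing receptor Ccr7 (-1.37 ± 0.19) and the selectin ligand Selplg (-1.13 ± 0.17). Cd69, which removes the S1P receptor from the surface of activated cells, also fell (-1.09 ± 0.30, adjusted p = 0.0288). Of 11 FOXO factors and regulators 4 fell, among them the forkhead factor Foxp1 (-1.66 ± 0.21), Pdpk1, the kinase that activates AKT (-1.04 ± 0.31), and the FOXO kinase Sgk1 (-1.03 ± 0.22). Without the OX40L-JAG1 Teff arrays 8 homing genes fell and 1 rose, and 6 FOXO factors and regulators fell. In that fit 16.5% of all genes fell and 12.5% rose (40.1% and 20% of the bright set).

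Of 8 other Krüppel-like factors 4 fell, among them Klf7 (-1.23 ± 0.25) and Klf13 (-1.0 ± 0.20), and Klf12 rose (1.30 ± 0.27), again in anti-CD3-CD28 Teff cells. The IL-7 receptor list was mixed, with 3 of 8 higher, led by the STAT5 target Cish (2.17 ± 0.19) and by Socs1 (1.35 ± 0.27), and 2 lower, led by the receptor kinase Jak1 (-1.43 ± 0.18). Of 11 genes in the TCF and LEF list, which also holds Id2, Id3 and Myb, 4 fell, led by Id3 (-2.02 ± 0.34) and the corepressor Tle4 (-1.71 ± 0.22). Id2, which is known to rise in effector cells, rose (1.56 ± 0.43). In the BACH2 and AP-1 list of 10, Jun (-3.37 ± 0.24) and Fos (-3.03 ± 0.24) led 3 falls, and Prdm1, the effector factor that BACH2 represses, led 2 rises (2.03 ± 0.23). Of 13 other quiescence genes 5 fell, led by the antiproliferative gene Btg1 (-1.42 ± 0.22), Sesn3 (-1.25 ± 0.23) and Txnip (-1.16 ± 0.20), and Ccng2 rose (0.89 ± 0.26). Without the OX40L-JAG1 Teff arrays 8 of these 13 fell and 1 rose. In that fit the BACH2 and AP-1 list had 4 falls and 4 rises, and the IL-7 receptor list 3 and 3. The TCF and LEF list had 5 falls and 1 rise there. Median changes were -0.79 for the homing list, -0.63 for the FOXO list, -0.59 for the Krüppel-like list, -0.04 for the IL-7 receptor list, -0.34 for the TCF and LEF list, 0.06 for the BACH2 and AP-1 list and -0.68 for the quiescence list, against 0.07 over all genes and -0.29 over the bright set.

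The same lists were read in Treg cells, where 8.08% of all genes rose and 1.97% fell with anti-CD3-CD28 (17.7% and 6.62% of the bright set). In anti-CD3-CD28 Treg against control Treg cells, homing genes had 2 falls and 2 rises: Itga4 (-2.33 ± 0.18) and Ccr7 (-0.66 ± 0.19, adjusted p = 0.0499) fell, and Selplg (1.16 ± 0.17) and the adhesion receptor Cd44 (1.08 ± 0.26) rose. Cd69 had -0.62 ± 0.30 there (adjusted p = 0.255). Among Krüppel-like factors Klf12 rose (1.56 ± 0.27) and Klf6 fell (-1.32 ± 0.23), and 1 FOXO regulator rose, the kinase Akt1 (0.67 ± 0.18). The IL-7 receptor list had 5 rises, led by Socs1 (1.93 ± 0.27), Pim1 (1.62 ± 0.19) and Cish (1.5 ± 0.19), and 1 fall. The calls in the TCF and LEF list were Id3 (-2.53 ± 0.34), which fell, and Id2 (1.54 ± 0.43) and Myb (1.25 ± 0.25), which rose. The BACH2 and AP-1 list had 2 rises, Batf (1.69 ± 0.43) and Prdm1 (1.36 ± 0.23), and 2 falls, led by Fos (-1.46 ± 0.24). Of the other quiescence genes 3 fell, led by Btg2 (-1.62 ± 0.22) and the glucocorticoid-induced Tsc22d3 (-1.33 ± 0.25), and Ccng2 rose (1.36 ± 0.26). Median changes there were 0.26 for the homing list, 0.33 for the FOXO list, -0.16 for the Krüppel-like list, 0.93 for the IL-7 receptor list, 0.37 for the TCF and LEF list, 0.06 for the BACH2 and AP-1 list and -0.01 for the quiescence list, against -0.05 over all genes and 0.28 over the bright set. The homing, FOXO and TCF and LEF medians are thus near that of the bright set. Without the OX40L-JAG1 Teff arrays 4 FOXO factors and regulators rose and none fell. Homing genes had 3 rises and 4 falls in that fit, and quiescence genes also 3 and 4. The TCF and LEF list had 3 rises and 1 fall, and the Krüppel-like list 1 rise and 2 falls. Of all genes 14.8% rose and 6.75% fell in that fit (34.7% and 14% of the bright set).

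In OX40L-JAG1 Treg against control Treg cells no gene of the homing, FOXO or TCF and LEF lists passed in limma. Few genes of any kind did, 1.56% of all genes and 3.62% of the bright set. The calls were Klf6 (-1.07 ± 0.23), Fos (-1.79 ± 0.24), Tsc22d3 (-1.14 ± 0.25), Btg2 (-1.05 ± 0.22) and Gfi1 (-0.94 ± 0.19), which fell, and the STAT5 targets Pim1 (1.30 ± 0.19) and Socs1 (1.25 ± 0.27), which rose. Ccr7 had 0.21 ± 0.19 (adjusted p = 0.862). Without the OX40L-JAG1 Teff arrays 1 homing gene rose and 1 fell, and 1 FOXO factor or regulator rose. In that fit 5.41% of all genes and 12.8% of the bright set passed. In OX40L-JAG1 Teff against control Teff cells 10 of 11 homing genes fell, led by Itgal (-2.05 ± 0.21), Selplg (-1.87 ± 0.17) and Cd69 (-1.85 ± 0.30), and 8 of 11 FOXO factors and regulators, led by Pdpk1 (-1.96 ± 0.31), Foxp1 (-1.83 ± 0.21) and Tsc2 (-1.79 ± 0.20). These counts stand beside the 73.5% of bright genes that fell on those arrays.

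The Treg and Teff cells of the same condition differed in these lists as well. With anti-CD3-CD28, 7 of 11 homing genes were higher in Treg cells and none lower, where 9.03% of all genes and 25% of the bright set were higher. They were led by Selplg (1.65 ± 0.17), Cd44 (1.22 ± 0.26) and Gpr183 (1.17 ± 0.26). Without the OX40L-JAG1 Teff arrays 7 homing genes were higher and 1 lower. In that fit 18.2% of all genes were higher and 10.4% lower (47.7% and 11.8% of the bright set). Ccr7 had -0.09 ± 0.19 (adjusted p = 0.795), with 9.48 and 9.71 on the anti-CD3-CD28 Treg arrays against 9.82 and 9.55 on the anti-CD3-CD28 Teff arrays, which overlapped. In the IL-7 receptor list 6 of 8 were higher, led by Cish (1.78 ± 0.19) and the signal transducer Stat5a (1.35 ± 0.19), and Gfi1 was lower (-1.32 ± 0.19). In control cells Ccr7 (-0.80 ± 0.19), Sgk1 (-1.05 ± 0.22), Pik3cd (-0.97 ± 0.20), Klf13 (-0.98 ± 0.20), Myb (-1.11 ± 0.25), Tle4 (-0.87 ± 0.22), Jak1 (-0.83 ± 0.18) and Vsir (-0.73 ± 0.18) were lower in Treg cells, and Cish (2.45 ± 0.19) was higher. Over all genes 2.51% were lower and 1.34% higher. Without the OX40L-JAG1 Teff arrays 6 FOXO factors and regulators were lower and none higher. Homing genes were lower in 4 and higher in 1, and the BACH2 and AP-1 list in 1 and 4. In that fit 8.93% of all genes were lower and 5.59% higher (22.1% and 15.4% of the bright set).

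**Figure D4:**
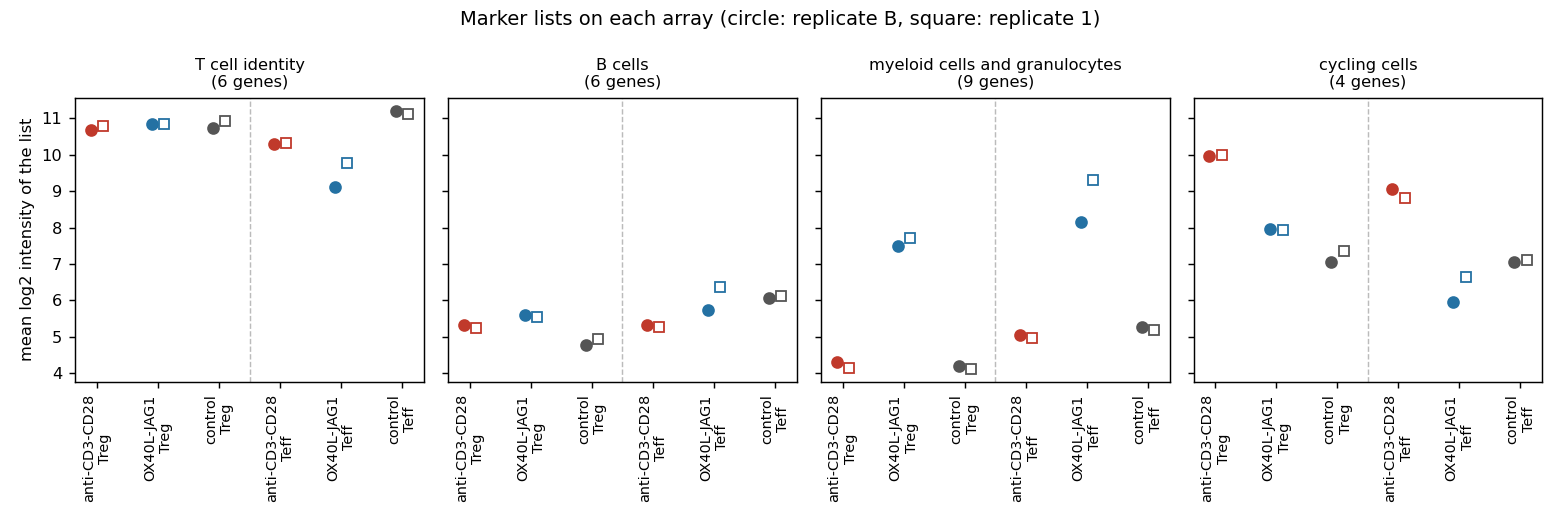
Mean log2 intensity (vertical axis) of 4 marker lists on each array, by group; circles are replicate B and squares replicate 1. T cell markers are lowest on the OX40L-JAG1 Teff arrays (9.12 and 9.77), myeloid and granulocyte markers are highest on the OX40L-JAG1 arrays of both cell types, and markers of cycling cells are highest with anti-CD3-CD28.

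The 8 genes did not share 1 pattern. Over the 6 group means, each gene centred on its own mean, the root mean square difference was least between S1pr1 and Lef1 (0.34), Foxo1 and Klf3 (0.36) and Il7r and Bach2 (0.37), and greatest between Klf2 and Satb1 (0.95) and Klf3 and Satb1 (0.95). The genes whose pattern was nearest to each were found by the same measure among 17248 genes. Nearest to Foxo1 was Zfp317 (0.18), then Slc29a3 (0.19) and Stk10 (0.22). Klf2 was nearest to Ttc3 (0.13), then Btg2 (0.15) and Icam2 (0.16), and Klf3 to B4galnt1 (0.098), then Il27ra (0.17) and Plcb2 (0.20). For S1pr1 they were Lipa (0.12), Zhx2 (0.14) and Slc25a35 (0.18), and for Il7r Zfp932 (0.12), Usp28 (0.14) and Flcn (0.17). Lef1 was nearest to Phf1 (0.14), Gramd1a (0.16) and Ttyh3 (0.18), Satb1 to Stt3b (0.15), Galnt6 (0.15) and Dpy19l1 (0.16), and Bach2 to Atrn (0.081), Elk4 (0.10) and Ice1 (0.11). These distances describe 6 means that share their arrays.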

How the data were processed

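RNA of sorted mouse Treg and Teff cells was measured on 12 arrays, 2 in each of 6 groups taken from the labels. The deposited values are log2 intensities that the authors summarised with RMA, per the submitters' processing notes; they give no version. Of 41345 rows, 23521 had 1 gene symbol, and the brightest row of each gene left 22180 genes. limma 3.58.1 in R 4.3.3 fitted 1 mean per group over 12 arrays (6 residual degrees of freedom), for 9 comparisons of 2 groups and 2 interactions, two-sided, with Benjamini-Hochberg adjustment over all genes and a threshold of 0.05. The procedure was tested on simulated data. Replicate labels B and 1 recur in every group. Replicate differences correlated between groups at -0.0693 to 0.182 over 15 pairs, so they were not treated as pairs. Quantile normalization, array weights and the other alternatives are in the closing section. The genes described and the lists were chosen with earlier results of these data known. Named besides them are the 3 genes nearest in pattern to each, up to 3 passing genes per list with the largest change, and Cd69 and Ccr7. A gene that this rule also names is not reported here. RMA values carry no detection call, and the number of arrays limits the precision.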

Additional observations from a re-analysis of the deposited data

Results flagged for a closer look

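The response to OX40L-JAG1 differed between Treg and Teff cells, by a test of the difference itself (limma interaction term, Treg response minus Teff response, log2), for 7 genes: Foxo1 (2.98), Il7r (2.49), Bach2 (2.29), Lef1 (2.23), Klf3 (2.16), Satb1 (2.12) and S1pr1 (2.11). Adjusted p lay between 0.000178 and 0.00135. Over all genes 21.3% passed in this direction, and 64.2% of genes with a mean log2 of at least 8 did. After quantile normalization Satb1 did not pass (1.09, adjusted p = 0.0569). The Foxo1 values here and in the next paragraph come from its brighter row. Its dimmer row, not tested alone, gave another order of the groups, and its Treg and Teff means moved alike with each treatment. All 7 changed downward in Teff cells, and in Treg cells Il7r passed upward and the other 6 did not pass. The OX40L-JAG1 Teff arrays, whose replicates differed most, enter all of these.

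The response to anti-CD3-CD28 differed by the same test for the same 7 genes: Foxo1 (2.55), S1pr1 (2.26), Satb1 (2.01), Lef1 (1.77), Il7r (1.60), Klf3 (1.28) and Bach2 (0.99). Adjusted p lay between 0.000218 and 0.0378, and between 1.69e-05 and 0.0085 without the OX40L-JAG1 Teff arrays. Over all genes 10.1% passed in this direction, and 28.4% of the brighter genes did. Without the OX40L-JAG1 Teff arrays 20% of all genes and 49.8% of the brighter genes did. After quantile normalization Klf3 (0.69, adjusted p = 0.132) and Bach2 (0.43, adjusted p = 0.534) did not pass. For Satb1 the change passed in opposite directions, 1.39 in Treg and -0.62 in Teff cells. Klf3 fell in both cell types, with changes of -1.02 in Treg and -2.30 in Teff cells.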

How the results depend on the processing

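Outside the fits that left out 1 array, 9 settings gave 684 values for single genes on the same side of the threshold and in the same direction, 37 newly past it, 23 no longer past it and 16 with the sign turned. Quantile normalization turned 11: with OX40L-JAG1, Treg against Teff, Klf2 (-0.64), Lef1 (-0.054) and Satb1 (-0.38); with anti-CD3-CD28, Treg against Teff, Lef1 (-0.078) and Bach2 (-0.13); in anti-CD3-CD28 against control Treg cells Foxo1 (-0.25); in anti-CD3-CD28 against OX40L-JAG1 Teff cells Foxo1 (-0.68), Klf3 (-0.65), Il7r (-0.50) and Bach2 (-0.11); and the OX40L-JAG1 interaction of Klf2 (-0.93). A common median turned Klf2 in anti-CD3-CD28 Treg against Teff (0.12) and S1pr1 (0.077) and Bach2 (0.056) in anti-CD3-CD28 against control Treg cells. Averaged rows turned Foxo1 in anti-CD3-CD28 against control Treg cells (-0.19) and in anti-CD3-CD28 against OX40L-JAG1 Teff cells (-0.47). Why these moved was not tested.

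Counts of the 8 genes past the threshold moved over 1.5 times as follows. OX40L-JAG1 Treg against Teff had 7, and 3 with quantile normalization and 2 with only the arrays compared. Anti-CD3-CD28 Treg against Teff had 2, and 4 with array weights or without the OX40L-JAG1 Teff arrays. OX40L-JAG1 against control Treg had 1, and 2 without those arrays. Anti-CD3-CD28 against OX40L-JAG1 Treg had 2, and 7 with array weights, 4 with only the arrays compared and 6 without the OX40L-JAG1 Teff arrays. Anti-CD3-CD28 against OX40L-JAG1 Teff had 2, and 4 with quantile normalization and 0 with array weights or only the arrays compared. With the replicate set as a block, 86 of 88 single values kept their call and direction, 1 was lost (S1pr1 in control Treg against Teff, adjusted p = 0.0539) and 1 gained (Klf2 in OX40L-JAG1 against control Teff, adjusted p = 0.0333), so the counts of those comparisons became 4 in place of 5 and 8 in place of 7, and no other count moved.

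With 1 array left out, the counts lay at 2 to 7 for Treg against Teff in control, 5 to 8 with OX40L-JAG1 and 1 to 4 with anti-CD3-CD28. Against control they lay at 0 to 2 for OX40L-JAG1 Treg, 1 to 4 for anti-CD3-CD28 Treg, 7 to 8 for OX40L-JAG1 Teff and 4 to 8 for anti-CD3-CD28 Teff. Between treatments they lay at 0 to 6 in Treg and 1 to 4 in Teff cells, and for the interactions at 7 with OX40L-JAG1 and 5 to 7 with anti-CD3-CD28. Signs turned for 15 single values. Klf2 spanned -0.36 to 1.05 (Treg against Teff, OX40L-JAG1), -0.26 to 0.19 (the same, anti-CD3-CD28), -1.02 to 0.38 (treatments in Teff cells) and -0.57 to 0.84 (OX40L-JAG1 interaction). In anti-CD3-CD28 against control Treg cells Foxo1 spanned -0.056 to 0.24, S1pr1 -0.076 to 0.051 and Bach2 -0.14 to 0.077. Between treatments in Teff cells Klf3 spanned -0.25 to 0.44 and Il7r -0.043 to 0.060. None of these passed with all 12 arrays.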
